A study of Homo sapiens with 6 samples.

Results

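The transcripts described here are those of 10 genes of the NF-kB system, namely the subunits RELA, RELB, REL, NFKB1 and NFKB2 and the feedback genes NFKBIA, NFKBIE, TNFAIP3, TNIP1 and BIRC3. They were taken by symbol from a table of read counts with 22503 gene rows, which holds all 10, and all 10 were among the 14649 genes kept for testing. The cells were CAL-27, an established line from a squamous carcinoma of the tongue. They were exposed for 48 h to DHA, with 3 libraries, or to DMSO, the usual solvent of such compounds, with 3 libraries. The study addresses how an artemisinin derivative alters gene expression in this carcinoma, and DHA is read here as dihydroartemisinin. The labels used here state no dose. Both groups are 1 cell line, and no label ties the libraries to separate cultures. The p-values therefore measure the spread between these samples only, and that spread may be technical.

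NF-kB is a family of transcription factors that form dimers. RELA, RELB and REL carry a transactivation domain, while NFKB1 and NFKB2 encode the precursors p105 and p100, which are processed to p50 and p52. In resting cells the dimers are held in the cytoplasm by IkB proteins, and signals from cytokine receptors through the IKK kinases cause the IkB proteins to be degraded. The released factor's targets include genes of its own inhibitors, so the transcripts of NFKBIA and TNFAIP3 are widely read as a measure of NF-kB activity. In squamous carcinomas the pathway is known for driving chemokines and survival genes.

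Total counts ran from 35983061 to 38120267 in the DHA libraries and from 35980670 to 37403613 in the DMSO libraries, and 3 counts corresponded to 0.0789 to 0.083 CPM (a library's counts per 1000000 of its scaled total). Of 11 keratinocyte markers 11 were in the tested set, with KRT5 at 1844 CPM in DHA and 2326 CPM in DMSO. Their summed level was 3960 to 4594 CPM in DHA and 5294 to 6756 CPM in DMSO, with 1 of them called higher and 0 called lower. The 7 fibroblast markers in the table summed to 9.16 to 13.2 CPM in DHA and 13.6 to 23.5 CPM in DMSO, and the 6 leukocyte markers to 39.2 to 50.7 CPM in DHA and 48.3 to 52.1 CPM in DMSO. Most of the leukocyte sum was CD68, a lysosomal gene that other cells also express, at 37.9 CPM in DHA and 39.4 CPM in DMSO. The monocyte marker CD14 was called lower, at 2.20 CPM in DHA and 5.64 CPM in DMSO (edgeR, adjusted p = 0.024), and 0 of the leukocyte markers higher. The leukocyte marker ITGAM was at 4.90 CPM in DHA and 4.52 CPM in DMSO. Most of the fibroblast sum was COL1A1, at 8.98 CPM in DHA and 14.4 CPM in DMSO (edgeR, adjusted p = 0.205). The B cell marker CD79A and the fibroblast marker DCN had at most 2 counts in any library. The part of these markers in the results below was not tested. In such bulk samples, fewer cells expressing a gene and less of its RNA per cell cannot be told apart.

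Because the feedback genes are targets of NF-kB, the promoters were searched for its motif. RefSeq promoter windows of GRCh38.p14, which run from 250 bases before to 50 bases after an annotated start, were matched for 8 of the 10 genes (all but RELB and NFKBIE), with 13 windows among them. The NF-kB consensus motif, a run of G, a purine, any pair of bases, a pair of pyrimidines and a final pair of C, was searched on both strands, where palindromic sites match both ways. It was present in at least 1 window of 7 of the 8 genes, all but RELA, against 17.2% of the 11491 tested genes with a window. By window it was present in 8 of 13, against 13.5% of the 16552 windows of tested genes and 11.3% of all 35116. The looser motif GGG, any 5 bases and CC, which contains the consensus, was present in all 13 windows and in 71% of the windows of tested genes. A match is a description of the letters and not evidence of binding. The stretches below show 1 match for each of the 7 genes, written along the gene's strand with the 10 matched bases in capitals.
NFKB1: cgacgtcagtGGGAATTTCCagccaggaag
NFKB2: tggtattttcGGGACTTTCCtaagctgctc
REL: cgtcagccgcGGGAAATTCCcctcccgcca
NFKBIA: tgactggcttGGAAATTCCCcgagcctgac
TNFAIP3: aaagtcccgtGGAAATCCCCgggcctacaa
TNIP1: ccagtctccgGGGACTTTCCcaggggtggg
BIRC3: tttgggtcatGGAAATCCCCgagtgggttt
These stretches lie at chr4:102501300-102501329 (plus strand) for NFKB1, chr10:102395674-102395703 (plus) for NFKB2, chr2:60881517-60881546 (plus) for REL and chr14:35404811-35404840 (minus) for NFKBIA. They lie at chr6:137867194-137867223 (plus) for TNFAIP3, chr5:151081057-151081086 (minus) for TNIP1 and chr11:102317275-102317304 (plus) for BIRC3. In NFKBIA, TNFAIP3 and BIRC3 the motif reads on the other strand. Its first base lay between -199 for BIRC3 and -21 for NFKB2 from the annotated start, with -1 the base before it. The NFKB1 and TNIP1 sites begin at -49 and -42, and the REL site at -47.

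None of the 10 genes passed the threshold in DHA against DMSO. By edgeR (quasi-likelihood F test, p-values adjusted by Benjamini-Hochberg over all 14649 genes), 0 of 10 had an adjusted p under 0.05, against 2.7% of all genes tested (395 genes, 161 higher and 234 lower). The 395 calls became 16 without DHA 1 and 789 without DHA 3, and without DHA 3 both RELB and NFKBIE were called, against 5.28% of all genes in that fit. At an unadjusted p under 0.05 there were 4 of 10, against 20.3% of all genes. DESeq2's Wald test called 1, RELB, against 7.75% of all genes by that test, and limma-voom called 0, against 2.49%. The groups did not overlap for 3 of 10, RELB, NFKB1 and NFKBIE, each with DHA above DMSO, against 27.8% of all genes tested, 14.3% with DHA above and 13.5% with DHA below. The log2 fold change was positive for 8 genes and negative for REL and BIRC3, with a median of 0.19, against 0.0028 over all genes tested. The signs of NFKBIA and BIRC3 turned when DHA 2 was left out and with GC content and exonic length corrected for, and the other 8 kept theirs in all alternatives run.

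**Figure D1:**
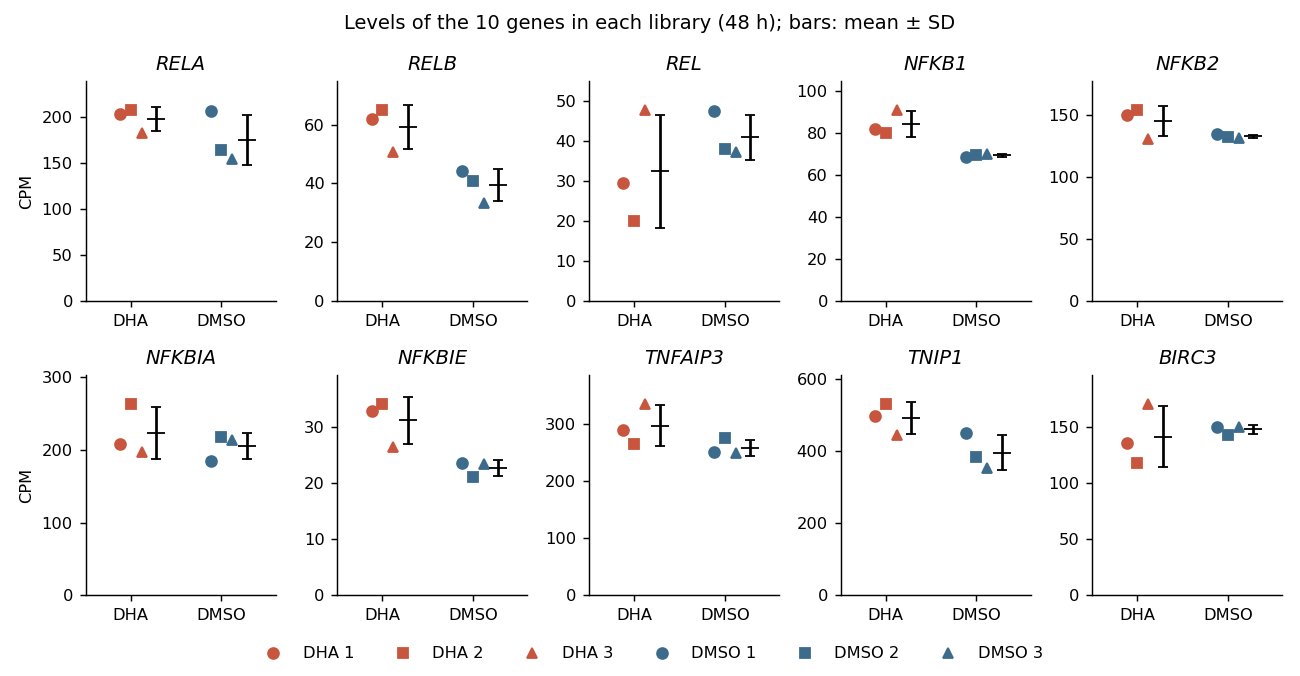
CPM of each of the 10 genes in the 3 DHA and 3 DMSO libraries at 48 h (points, 1 shape per replicate number), with the mean and SD of each group; each panel has its own axis from 0. RELB, NFKB1 and NFKBIE have all DHA points above all DMSO points, and REL spreads from 20.1 to 47.9 CPM within DHA.

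RELB had the largest difference among the 10. It encodes the subunit that pairs with p52 in the alternative, NIK-dependent branch of the pathway, and lies on chromosome 19 at 45001464 to 45038192. It had 61.9, 65.0 and 50.8 CPM in DHA 1, DHA 2 and DHA 3, against 44.1, 40.7 and 33.5 CPM in DMSO 1, DMSO 2 and DMSO 3. Every DHA library stood above every DMSO library, with 6.68 CPM between the nearest pair. The log2 fold change was 0.59 ± 0.16 (SE), with a 95% interval of 0.24 to 0.94 and an adjusted p of 0.0834 by edgeR. It passed in DESeq2 (adjusted p = 0.018) and without DHA 3 (edgeR, adjusted p = 0.0365), and its adjusted p reached 0.283 without DHA 1.

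RELA encodes p65, the main transactivating subunit of the classical branch, on chromosome 11 at 65653601 to 65663857. It had 203.04, 208 and 183 CPM in DHA, against 206, 164 and 155 CPM in DMSO. DMSO 1 stood among the DHA libraries, so the groups overlapped. DHA over DMSO gave 0.18 ± 0.14 on the log2 scale, and edgeR an adjusted p of 0.492.

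REL, on chromosome 2 at 60881574 to 60931612, encodes c-Rel, a subunit best known from lymphocytes. It had 29.6, 20.1 and 47.9 CPM in DHA, against 47.5, 38.1 and 37.4 CPM in DMSO. DHA 3, just above DMSO 1, was the highest of the 6 libraries and DHA 2 the lowest. REL had a log2 fold change of -0.33 ± 0.27 with a 95% interval of -0.94 to 0.27 (edgeR, adjusted p = 0.498), the widest interval of the 10. It was -0.71 without DHA 3 (adjusted p = 0.0608) and -0.084 without DHA 2 (adjusted p = 0.878). A noncoding gene on the same strand overlaps 5702 bases of REL in GENCODE 29, an exon included, so its reads and those of REL may not be told apart.

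The precursor gene NFKB1, on chromosome 4 at 102501359 to 102617302, had 81.9, 79.8 and 91.0 CPM in DHA, against 68.7, 69.4 and 70.2 CPM in DMSO. The DMSO libraries lay within 1.44 CPM of each other and all DHA libraries lay above them. Its log2 fold change of 0.28 ± 0.12 had an unadjusted p of 0.0427 in edgeR and an adjusted p of 0.23. NFKB2, on chromosome 10 at 102394110 to 102402529, had 150, 154 and 131 CPM in DHA, against 134, 132 and 131 CPM in DMSO, with DHA 3 just below the lowest DMSO library. For NFKB2 the log2 fold change was 0.13 ± 0.12, and edgeR's adjusted p was 0.555.

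Among the inhibitors, NFKBIA encodes IkB-alpha, the fast feedback inhibitor of RELA dimers, on chromosome 14 at 35401513 to 35404749. It had 208, 264 and 197 CPM in DHA, against 185, 218 and 214 CPM in DMSO. Only DHA 2 stood above all DMSO libraries. NFKBIA had a log2 fold change of 0.12 ± 0.15, and its 95% interval of -0.21 to 0.44 corresponds to 0.865-fold to 1.36-fold (edgeR, adjusted p = 0.664). The value was -0.022 without DHA 2.

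NFKBIE encodes IkB-epsilon, a slower feedback inhibitor, on chromosome 6 at 44258166 to 44265551. It had 32.8, 34.1 and 26.3 CPM in DHA, against 23.5, 21.1 and 23.3 CPM in DMSO. The groups were apart, by 2.77 CPM between the nearest pair. NFKBIE had a log2 fold change of 0.46 ± 0.15 (edgeR, unadjusted p = 0.0123, adjusted p = 0.137). Of the alternatives run, it passed only without DHA 3 (adjusted p = 0.0466), and its adjusted p reached 0.388 without DHA 1.

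TNFAIP3 encodes A20, an enzyme that edits ubiquitin chains and ends signaling to IKK, on chromosome 6 at 137866349 to 137883312. It had 290 CPM in DHA 1, 265 in DHA 2 and 336 in DHA 3, against 251, 275 and 249.7 CPM in DMSO 1 to 3. The groups overlapped through DHA 2 and DMSO 2, and the log2 fold change was 0.20 ± 0.13, with an interval of 0.939-fold to 1.41-fold (edgeR, adjusted p = 0.402). An antisense gene overlaps 1046 bases of TNFAIP3 in GENCODE 29, and reads of such a pair cannot be told apart unless counting used the strand, which the sources used here do not state. TNIP1, on chromosome 5 at 151029943 to 151087685, encodes ABIN1, a ubiquitin-binding partner of A20. It had 498, 531 and 444 CPM in DHA, against 449, 384 and 352 CPM in DMSO, with DMSO 1 just above DHA 3. Its log2 fold change was 0.31 ± 0.14 (edgeR, unadjusted p = 0.0474, adjusted p = 0.241).

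BIRC3 encodes cIAP2, a ubiquitin ligase at the TNF receptor and an NF-kB target, on chromosome 11 at 102317484 to 102339403. It had 135, 118 and 171 CPM in DHA, against 150.2, 143 and 149.8 CPM in DMSO. The DMSO libraries lay between DHA 1 and DHA 3. BIRC3 had -0.063 ± 0.15 as a log2 fold change (SE; adjusted p = 0.834, edgeR) and its sign turned without DHA 2, at 0.0502.

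**Figure D2:**
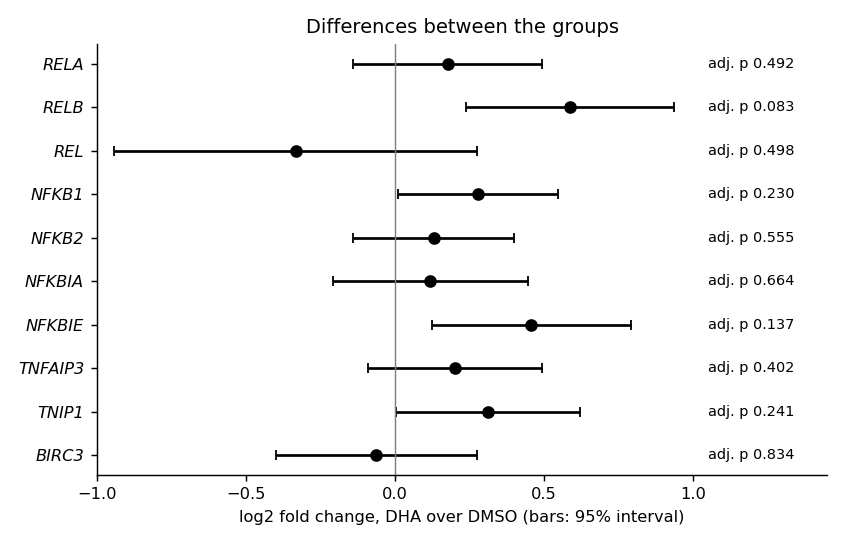
Log2 fold change of DHA over DMSO for each of the 10 genes (points) with 95% intervals from the standard error and the degrees of freedom of the edgeR test, and the adjusted p at the right. The adjusted p is lowest for RELB at 0.083, and the intervals of RELB, NFKBIE, NFKB1 and TNIP1 lie above 0 before adjustment.

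The 10 transcripts differed widely in abundance. Per kilobase of exon union in GENCODE 29, the order in DHA was NFKBIA, TNIP1, TNFAIP3, RELA, NFKB2, RELB, BIRC3, NFKB1, NFKBIE and REL, and in DMSO BIRC3 stood before RELB while the other places were unchanged. NFKBIA averaged 94.0 ± 15.1 CPM per kb in DHA and 86.7 ± 7.59 in DMSO (SD, n = 3 each). TNIP1 averaged 84.8 ± 7.57 CPM per kb in DHA and 68.2 ± 8.52 in DMSO. TNFAIP3 averaged 58.8 ± 7.15 CPM per kb in DHA and 51.2 ± 2.80 in DMSO. Thus the 3 most abundant transcripts per length were inhibitors of the pathway and not its subunits.

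Of the subunits, RELA was the most abundant per length, with 36.2 ± 2.42 CPM per kb in DHA and 32.03 ± 5.02 in DMSO. NFKB2 averaged 32.4 ± 2.76 CPM per kb in DHA and 29.6 ± 0.341 in DMSO. RELB averaged 19.5 ± 2.46 CPM per kb in DHA and 13.0 ± 1.79 in DMSO, and NFKB1 averaged 13.5 ± 0.95 CPM per kb in DHA and 11.1 ± 0.115 in DMSO. REL was last with 2.47 ± 1.07 CPM per kb in DHA and 3.11 ± 0.428 in DMSO, over an exon union of 13170 bases. The libraries of RELA and NFKB2 overlapped in both groups. Those of NFKBIA and TNIP1, of RELB and BIRC3, and of NFKB1 and NFKBIE overlapped in DHA but not in DMSO, while those of RELB and NFKB1 overlapped in DMSO but not in DHA. The transcripts used by these cells are not known, so the lengths are approximate.

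**Figure D3:**
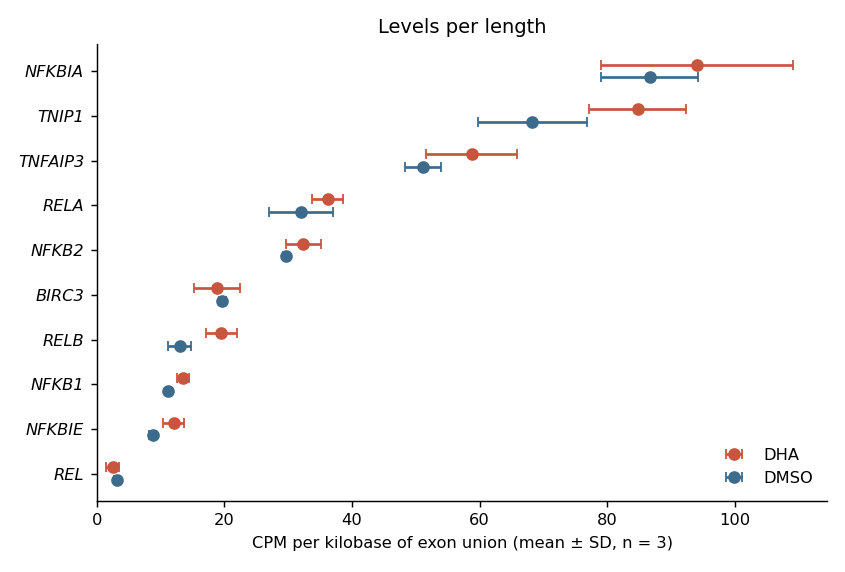
CPM per kilobase of exon union (mean ± SD, n = 3) of the 10 genes in DHA and DMSO, in the order of the DMSO means. NFKBIA, TNIP1 and TNFAIP3 lie above every subunit, and REL lies lowest at 2.47 in DHA and 3.11 in DMSO.

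The balance between subunits was read as a ratio of CPM within a library, which does not depend on library scaling. It is not per length, so its level does not compare the amounts of both transcripts. The ratio of RELB to RELA was 0.305, 0.313 and 0.278 in DHA 1 to 3, against 0.214, 0.248 and 0.216 in DMSO 1 to 3, with no overlap. The difference was 0.40 on the log2 scale, with a two-sided exact permutation p of 0.1, the smallest that 3 against 3 libraries allow, and 0.3 adjusted over the 3 ratios computed. The ratio of NFKB2 to NFKB1 was 1.83, 1.93 and 1.44 in DHA, against 1.96, 1.91 and 1.87 in DMSO, with DHA 3 alone far below the rest (exact permutation p = 0.3, adjusted 0.45). The ratio of NFKBIA to RELA was 1.03, 1.27 and 1.08 in DHA, against 0.897, 1.33 and 1.38 in DMSO, a difference of -0.076 on the log2 scale (exact permutation p = 0.8, adjusted 0.8).

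Within DHA the genes parted into 2 sets by library. NFKB1, REL, TNFAIP3 and BIRC3 were highest in DHA 3 of the 3 DHA libraries, and NFKB2, RELA, RELB, NFKBIA, NFKBIE and TNIP1 were lowest there. DHA 3 was thus at an end of the DHA range for all 10 genes, as it was for 81.1% of all genes tested. DHA 2 was likewise at an end for all 10 genes, 6 highest and 4 lowest, and for 79.2% of all genes tested. DHA 1 was therefore at an end for 0 of the 10, and for 39.7% of all genes tested. In the DMSO group, DMSO 1 was at an end for 9 of the 10 genes and for 85.7% of all genes tested. The difference of DHA 3 from the mean of DHA 1 and DHA 2 ran from 0.17 for NFKB1 to 0.97 for REL in the first set, and from -0.35 for NFKBIE to -0.17 for RELA in the second, in log2 CPM. The sets also differed in base composition. The longest transcript of each gene held 34.8% to 50.1% G and C in the first set and 53.1% to 65.4% in the second, and the exon unions were 5051 to 13170 bases and 2373 to 5793 bases long. Across the 13138 tested genes with a gene model, the same difference had a Spearman correlation of -0.544 with GC content and 0.461 with length, where genes are not independent replicates and share the libraries. DHA 2 had the opposite relation, with 0.491 for GC content and -0.462 for length, and DHA 1 had 0.112 and -0.00778. Each library was set against the mean of the other libraries of its group. The values within a group are therefore tied, and that of DHA 2 is not a separate observation. The values of the DMSO libraries lay between -0.195 and 0.21. With a GC content and length trend removed from each library, an alternative chosen after the data were seen, RELB passed (log2 fold change 0.61, edgeR, adjusted p = 0.0167) and the other 9 did not, against 6.71% of all genes in that fit. NFKBIA was then at -0.017 and BIRC3 at 0.086, both of the opposite sign.

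**Figure D4:**
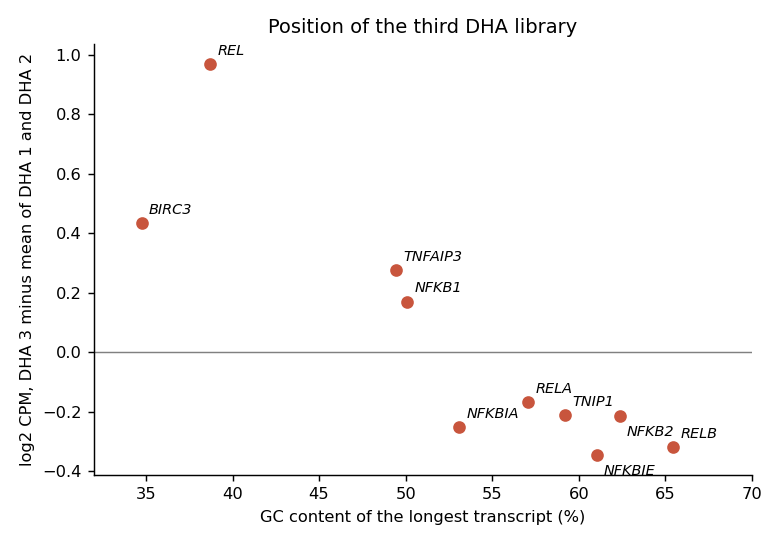
Difference in log2 CPM between DHA 3 and the mean of DHA 1 and DHA 2 for each of the 10 genes, against the GC content of the gene's longest GENCODE 29 transcript in percent. The 4 genes at 50.1% or less lie above 0, and the 6 genes at 53.1% or more lie below.

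The rest of the pathway was described from lists of other genes by role, chosen with earlier results of these data known, of which 90 were tested. In these, 8 genes rose and 1 fell in edgeR, against 1.1% and 1.6% of all genes tested, and the median log2 fold change was 0.058. The calls lay in the adaptors, where 3 of 21 rose and 0 fell, and in the target genes, where 5 of 30 rose and 1 fell. Receptors and ligands (16 tested), IKK kinases and other IkB proteins (10) and further brakes (13) held 0 calls in the main fit and limma-voom. In edgeR, 7, 1 and 3 of them had an unadjusted p under 0.05. DESeq2's Wald test called 3.09% of all genes higher and 4.66% lower. Of the targets it called 11 higher and 1 lower, of the adaptors the same 3, of the receptors and ligands 4 (IL1A higher; CD40, IL1R1 and IL1RAP lower), of the IkB genes NFKBIB higher, and of the brakes 0. All 8 rises missed the threshold without DHA 1 and all but PLAU without DMSO 2. Only PLAU and BCL2A1 of the 8 passed it without DMSO 3. IRAK2, CXCL3 and CSF3 missed it without DMSO 1, and IRAK2, CXCL2 and CXCL3 without DHA 2. The fall missed the threshold whichever of the 6 libraries was left out.

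The adaptors that rose act close to the receptors. IRAK1, a kinase behind the IL-1 and Toll-like receptors, had 307, 309.6 and 302 CPM in DHA, against 192, 195 and 192 CPM in DMSO, 0.67 ± 0.11 as a log2 fold change (SE; adjusted p = 0.0195, edgeR). Its relative IRAK2 had 45.8, 52.9 and 50.7 CPM in DHA, against 35.8, 32.5 and 30.3 CPM in DMSO, 0.60 ± 0.13 as a log2 fold change (SE; adjusted p = 0.0472, edgeR). For both, every DHA library stood above every DMSO library. IRAK2 lay at the threshold and missed it in limma-voom (adjusted p = 0.0507), with upper-quartile scaling (0.0544), with unscaled totals (0.0534) and above a mean of 5 CPM (0.0591), and its adjusted p reached 0.181 without DMSO 2. RBCK1 encodes HOIL-1, a subunit of the linear ubiquitin ligase LUBAC that recruits IKK. It had 234, 272 and 215 CPM in DHA, against 145, 141 and 133 CPM in DMSO, 0.78 ± 0.13 as a log2 fold change (SE; adjusted p = 0.0195, edgeR). The other LUBAC genes, the catalytic RNF31 and the adaptor SHARPIN, had log2 fold changes of 0.20 and 0.11 with adjusted p of 0.423 and 0.767 by edgeR.

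Of the IKK genes, CHUK, IKBKB and IKBKG had log2 fold changes of 0.19, 0.0048 and 0.11, and the kinase MAP3K14 (NIK), which drives the alternative branch, -0.31 (edgeR, adjusted p = 0.272). NFKBIB, a further IkB gene, was at 42.6, 50.02 and 38.6 CPM in DHA, against 20.5, 31.7 and 28.8 CPM in DMSO, and its log2 fold change of 0.69 ± 0.18 missed the threshold (edgeR, adjusted p = 0.0837). The 13 brakes had a median of 0.035, with 7 positive and 6 negative, and for 4 of them the groups did not overlap (3 with DHA above and 1 with DHA below). The deubiquitinase gene CYLD was at 0.35 and TNIP2, a relative of TNIP1, at 0.42 on the log2 scale, with adjusted p of 0.204 and 0.193 by edgeR. For NFKBIB, CYLD and TNIP2 the DHA libraries stood above the DMSO libraries. IRAK3, which restrains IRAK signaling, had all DHA libraries below, at -0.48 (edgeR, unadjusted p = 0.0339, adjusted p = 0.209).

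Values of the target genes were uneven, with a median log2 fold change of 0.28. For 17 of the 30 the groups did not overlap, 15 with DHA above, against 27.8% and 14.3% of all genes, and 15 had an unadjusted p under 0.05 in edgeR, against 20.3%. The list was chosen with earlier results of these data known, so these shares describe it and do not test the targets. PLAU, the urokinase gene, had 2323, 2570 and 2428 CPM in DHA, against 1003, 1311 and 1156 CPM in DMSO, 1.08 ± 0.14 as a log2 fold change (SE; adjusted p = 0.01, edgeR). BCL2A1, an anti-apoptotic BCL2 relative and a common NF-kB target, had 3.19, 3.73 and 3.48 CPM in DHA, against 1.14, 0.909 and 0.92 CPM in DMSO, 1.81 ± 0.25 as a log2 fold change (SE; adjusted p = 0.0125, edgeR). CSF3, the gene of the granulocyte growth factor G-CSF, had 1.46, 4.48 and 1.73 CPM in DHA, against 0.189, 0.413 and 0.394 CPM in DMSO, from 7 to 15 reads per DMSO library, and a log2 fold change of 2.93 ± 0.53 (edgeR, adjusted p = 0.024). DHA 2 stood far above the other libraries, and without it the value was 2.25. CSF3 missed the threshold without DMSO 1 (edgeR, adjusted p = 0.084), and passed in 2 of the 6 fits with 1 library left out. Each of the 3 had all DHA libraries above all DMSO libraries.

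The neutrophil chemokine genes CXCL2 and CXCL3 rose by log2 fold changes of 2.03 ± 0.42 and 1.31 ± 0.25 (adjusted p = 0.0378 and 0.0297 by edgeR). CXCL2 had 19.1, 27.9 and 27.7 CPM in DHA, against 2.05, 8.46 and 7.73 CPM in DMSO. CXCL3 had 17.3, 21.2 and 25.9 CPM in DHA, against 5.81, 11.3 and 8.78 CPM in DMSO. Without DMSO 1, the lowest library for both, the values were 1.62 and 1.09, and CXCL3 missed the threshold (edgeR, adjusted p = 0.0598). CXCL2 missed the threshold with unscaled totals (0.0518) and above a mean of 5 CPM (0.0508). Of the 6 fits with 1 library left out, CXCL2 passed in 2 and CXCL3 in 1. Their neighbours CXCL1 and CXCL8 were at 0.022 and 0.55 (adjusted p = 0.968 and 0.205). CXCL1, CXCL2 and CXCL3 are close paralogs, so how their reads were divided is uncertain. The 1 fall, named after its values were seen, was SAA2, an acute-phase gene nearly identical to SAA1. It had 14.1, 13.8 and 13.2 CPM in DHA against 19.5, 21.9 and 21.5 CPM in DMSO (edgeR, adjusted p = 0.0485). SAA2 missed the threshold in limma-voom (0.0548), with unscaled totals (0.051) and with no filter (0.0554). SAA1 averaged 122 CPM in DHA and 124 CPM in DMSO (log2 fold change -0.022, edgeR, adjusted p = 0.972). How reads were divided between SAA1 and SAA2 is likewise uncertain. A further 6 targets passed in DESeq2 but in neither the main edgeR fit nor limma-voom, and their calls in the other alternatives are not given. They were CCL20 (a chemokine gene), CSF2 (GM-CSF), TRAF1 (an adaptor), BCL2L1 (BCL-XL), PTX3 (a pentraxin) and LCN2 (a lipocalin). In edgeR their log2 fold changes ran from 0.45 for BCL2L1 to 0.99 for CSF2, with adjusted p between 0.0531 for TRAF1 and 0.127 for CSF2. ICAM1, an adhesion gene often used as a readout of RELA, was at 0.12 (adjusted p = 0.601), and IL6 at -0.13 (edgeR, adjusted p = 0.844).

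**Figure D5:**
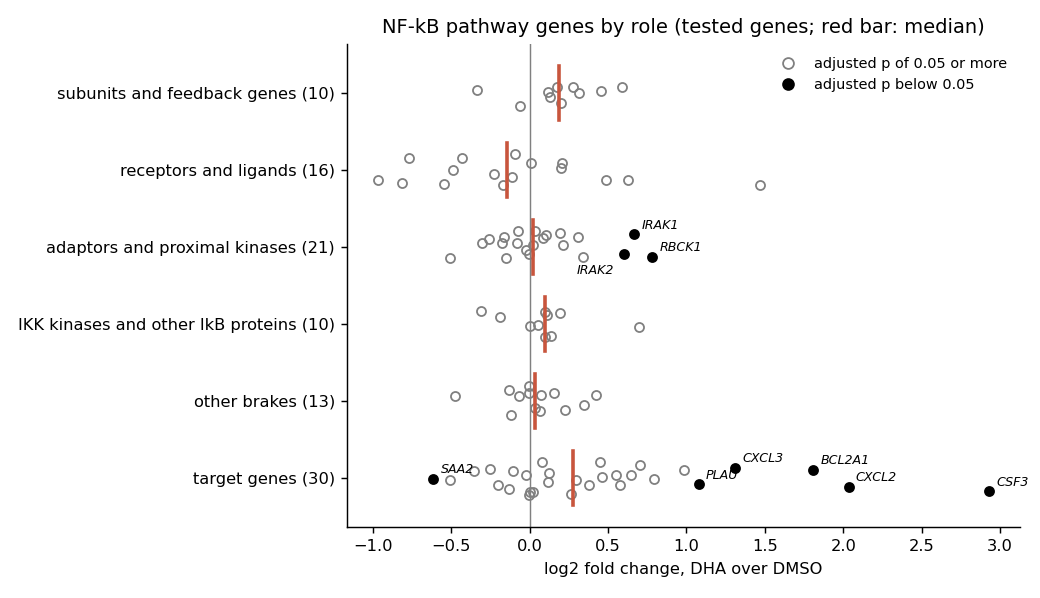
Log2 fold change of DHA over DMSO for the tested genes of each role list (points; vertical position within a row has no meaning), with the list's median as a red bar. Filled points are the 9 genes past an adjusted p of 0.05, 8 at the right of 0 and SAA2 at the left, and none of them is among the 10 subunits and feedback genes.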

How the data were processed

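RNA sequencing was done on 6 CAL-27 libraries. The authors deposited raw read counts per gene, 1 column per library and not normalized; the submitters' processing notes name fastp, HISAT2, HTSeq, R 3.2.0 and the build GRCh38, with no settings. Strand use and annotation release are not given in the sources. HTSeq by default leaves out reads matching several genes, which can lower the counts of paralogs and overlapping genes. Intervals cover the spread between libraries only.

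Genes were kept by filterByExpr (minimum count 10), scaled by TMM and tested by edgeR 4.0.16 (quasi-likelihood F test, two-sided, 0.05 threshold after Benjamini-Hochberg adjustment) in R 4.3.3. CPM are relative to the scaled totals; SE is the log2 fold change over the square root of F. Common biological variation was 18.5%. As a check of the code, the fit was run on simulated counts with 200 genes changed and no GC content or length trend. The recovery of small differences such as those of the 10 genes is not given here. Alternatives used DESeq2 1.42.0 and limma 3.58.1, other scalings and filters, a replicate block and each library left out. A GC content and length correction (natural splines, 5 degrees of freedom, 89.7% of tested genes) was added later.

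The 10 genes and all lists were chosen with earlier results of these data known. Named were the 10, and in each list up to 5 called genes of mean 1 CPM or more, those of largest change; others named for their role (in the LUBAC, IKK, IkB, brake and target lists) were chosen after their values were seen. Gene coordinates and promoters are RefSeq's, GRCh38.p14.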

Additional observations from a re-analysis of the deposited data

How the results depend on the processing

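Leaving out 1 library gave 16 to 789 called genes against 395, 0 to 2 of the 10 genes higher, 0 lower, 0 to 10 pathway genes higher and 0 to 2 lower; 16 and 0 came without DHA 1, and 46 and 1 without DMSO 2. With no filter there were 649 calls, 13 pathway genes higher and 2 lower, and above a mean of 5 CPM 252 calls with 4 pathway genes higher. DESeq2's Wald test gave 1135 calls, 1 of the 10 (RELB), and 16 pathway genes higher and 4 lower. The GC content and length correction, chosen after the data were seen, gave 881 calls, 1 of the 10 (RELB), and 13 and 4 pathway genes. Unscaled totals and limma-voom gave 0 pathway genes lower. With the replicate block there were 1272 calls, 1 of the 10 (RELB, adjusted p = 0.0181), and 17 and 4 pathway genes. The labels do not say whether the numbers pair the libraries, and the values do not settle it. Deviations of same-numbered libraries correlated at 0.258, 0.119 and -0.0397. The same number gave the highest correlation for DHA 1 and, narrowly, for DHA 2, which had 0.117 with DMSO 3. DHA 3 correlated best with DMSO 2. In this balanced design a block cannot move the group differences in the 3 ratios. Over the libraries left out NFKBIA ran from -0.022 to 0.21 and BIRC3 from -0.21 to 0.0502, with both signs turned without DHA 2, and they were at -0.017 and 0.086 with the correction. The group difference (DHA minus DMSO) in the log2 ratio of NFKBIA to RELA ran from -0.27 to 0.038 over the libraries left out. This difference was above 0 without DMSO 2 (0.0081) or DMSO 3. For the log2 ratio of NFKB2 to NFKB1 the group difference ran from -0.23 to -0.022, and for RELB to RELA from 0.36 to 0.47. The cause was not tested. With 3 libraries a group, the 95% interval of NFKBIA reached 1.36-fold and that of REL 0.521-fold, so differences up to these sizes are compatible with the data for these genes.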

Other observations

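The IL-1 arm, which signals to NF-kB through IRAK1 and IRAK2, held differences of opposite sign in the ligand gene IL1A and the receptor genes. None of the 3 passed the threshold in the main edgeR fit or limma-voom, and all passed in DESeq2. Their calls in the other alternatives are not given. The 3 were picked after their values were seen. IL1A, the gene of an epithelial alarmin, had 404, 477 and 492 CPM in DHA, against 247, 322 and 319 CPM in DMSO (log2 fold change 0.63 ± 0.15, adjusted p = 0.0583, edgeR). The other ligand gene, IL1B, had 298, 411 and 313 CPM in DHA, against 265, 317 and 308 CPM in DMSO, with overlapping groups (log2 fold change 0.20 ± 0.15, adjusted p = 0.47, edgeR). The receptor gene IL1R1 had 25.4, 18.04 and 26.6 CPM in DHA, against 48.8, 34.7 and 35.8 CPM in DMSO (log2 fold change -0.77 ± 0.20, adjusted p = 0.0745). Its accessory chain IL1RAP had 46.4, 34.1 and 58.4 CPM in DHA, against 101.97, 69.1 and 72.8 CPM in DMSO (log2 fold change -0.81 ± 0.22, adjusted p = 0.0848). In IL1A, IL1R1 and IL1RAP the groups did not overlap, as for 27.8% of all genes tested. TNF, another ligand gene of the classical branch, had 22.7, 29.3 and 25.7 CPM in DHA, against 13.7, 27.5 and 26.3 CPM in DMSO (edgeR, adjusted p = 0.653), with DMSO 1 alone far below the others.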
